A study of Homo sapiens with 6 samples.

Results

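Complement is a cascade of plasma proteases and membrane proteins that marks and lyses cells, and 9 of its genes were followed in Rh30 cells: C4BPB, C4BPA, C1R, C1S, C3, CFB, CFI, CD55 and CD59. They are 9 of the 20046 genes named on the array, and every array probe annotated to 1 of these symbols was read, 16 probes in all. The genes were selected on measured values of the comparison described here, siP/CAF against control, in which C4BPB was among the larger rises. Their differences are therefore a description, without a p-value. Rh30 is a cell line from a human alveolar rhabdomyosarcoma, a muscle-like tumour driven by a PAX3-FOXO1 fusion. Control arrays 1, 2 and 3 carried total RNA of cells transfected with a scrambled siRNA. The siP/CAF arrays 1, 2 and 3 carried RNA of cells transfected with an siRNA to P/CAF, a lysine acetyltransferase whose gene is KAT2B. All RNA was taken 72 h after transfection, all 6 samples came from this 1 line, and no label states whether samples within a group were grown separately. The spread between them may therefore be technical, and p-values measure that spread alone. The labels do not give the siRNA sequences or their number.

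The classical route of complement starts when the proteases C1r and C1s, bound to C1q, cleave C4 and C2. The alternative route runs through C3 and factor B (CFB), and both routes build convertases that cut C3. Regulators stop them: C4b-binding protein, made of alpha chains (C4BPA) and a beta chain (C4BPB), helps factor I (CFI) to cleave C4b, CD55 takes convertases apart on the cell's own surface, and CD59 blocks the pore formed at the end. Most of the soluble components are made by the liver, while CD55 and CD59 sit on nearly all cells.

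Arrays were alike in depth. Between 20891 and 21421 of 47323 probes per array were detected, which means a detection p under 0.05 against the array's own background, and correlations between arrays within a group ran from 0.981 to 0.994. Rh30 cells carried their muscle tumour markers: 9 of 10 listed markers, such as MYOD1, MYOG and DES, were detected on every control array. Of the 9 tested, 1 passed as lower, or 11.1% against 3.09% of all tested genes, and none as higher. It was MYOG, a myogenic transcription factor. Its signals were 2790.5 to 4733.5 in controls and 988.0 to 1225.3 after siP/CAF (log2 difference -1.67, SE 0.16; limma, Benjamini-Hochberg adjusted p = 6.88e-04). The groups were apart for 4 of the 9, all lower (MYOG, CHRNA1, FGFR4 and MYOD1), against 15.1% of all tested genes apart as lower, while the summed signal of the list overlapped, at 51556.9 to 74390.5 in controls and 54337.9 to 59444.5 after siP/CAF. The remaining listed marker, TNNC2, did not enter the fit and went the other way. It read 71.3, 60.1 and 70.0 in controls, none detected, and 85.0, 95.3 and 93.8 after siP/CAF, detected on 2 arrays. The part of these marker shifts in the results was not tested. KAT2B itself fell, its control signals of 608.4 to 1093.0 dropping to between 135.6 and 178.4 (log2 difference -2.77, SE 0.22; limma, Benjamini-Hochberg adjusted p = 1.91e-04). The other KAT2B probe, dim throughout, exceeded background on 2 arrays, both controls, and did not enter the fit. The array reads bulk RNA, so fewer cells expressing a gene and less RNA per cell cannot be told apart.

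Promoter sequences of 4 of the genes are shown here. C4BPB, C4BPA and CD55 were taken because they lie in 1 cluster on chromosome 1, in which C4BPB and CD55 read higher after siP/CAF and C4BPA was not detected. CFB was taken because its window, with matches to 2 of the motifs searched, belongs to a gene that did not pass. Each sequence runs from 250 bases before to 50 bases after a RefSeq start site (GRCh38.p14), 5′ to 3′ on the gene's strand, with the start site at base 251. Capitals mark matches to 4 motifs, searched on both strands: the NF-kappaB consensus, the STAT motif TTCNNNGAA, the C/EBP motif TTGCNNAA and the interferon regulatory factor (IRF) motif AANNGAAA.
C4BPB, the middle of 3 start sites (chr1:207088989-207089288, plus strand): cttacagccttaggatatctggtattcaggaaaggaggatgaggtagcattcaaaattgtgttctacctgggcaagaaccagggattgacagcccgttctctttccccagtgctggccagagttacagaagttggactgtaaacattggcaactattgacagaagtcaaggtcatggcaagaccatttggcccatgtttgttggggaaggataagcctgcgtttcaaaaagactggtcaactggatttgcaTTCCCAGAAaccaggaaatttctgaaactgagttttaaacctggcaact
C4BPA (chr1:207103983-207104282, plus strand): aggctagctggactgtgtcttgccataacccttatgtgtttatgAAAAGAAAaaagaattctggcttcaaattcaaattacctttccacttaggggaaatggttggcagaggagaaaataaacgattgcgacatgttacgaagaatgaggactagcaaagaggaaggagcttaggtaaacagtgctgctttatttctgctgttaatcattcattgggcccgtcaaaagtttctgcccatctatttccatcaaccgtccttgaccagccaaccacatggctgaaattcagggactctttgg
CD55 (chr1:207321428-207321727, plus strand): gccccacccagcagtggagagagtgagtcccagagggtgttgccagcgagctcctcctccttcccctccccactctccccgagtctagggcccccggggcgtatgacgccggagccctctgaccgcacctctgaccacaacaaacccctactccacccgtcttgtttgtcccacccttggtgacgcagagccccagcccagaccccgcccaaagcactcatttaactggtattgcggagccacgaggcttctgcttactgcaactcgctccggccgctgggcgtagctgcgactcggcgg
CFB (chr6:31945845-31946144, plus strand): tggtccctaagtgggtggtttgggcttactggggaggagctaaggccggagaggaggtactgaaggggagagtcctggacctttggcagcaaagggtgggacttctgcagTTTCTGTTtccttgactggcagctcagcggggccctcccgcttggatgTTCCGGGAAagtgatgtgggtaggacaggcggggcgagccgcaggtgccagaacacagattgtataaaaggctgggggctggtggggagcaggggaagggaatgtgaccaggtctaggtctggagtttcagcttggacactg

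Windows were held for 7 of the 9 genes, 13 windows in all, C1S and C3 not among them. The C4BPB window holds TTCCCAGAA at bases 252 to 260, just past the start site, and the overlapping window of its last start site holds the same letters. The window of the first C4BPB start site holds no match to the 4 motifs. CFB holds TTCCGGGAA at bases 159 to 167 and, as the reverse strand of the IRF motif, TTTCTGTT at bases 111 to 118. C4BPA holds an IRF match, AAAAGAAA, at bases 45 to 52, and no match to the 4 motifs is in the CD55 window. Among members a STAT match occurs in C4BPB, C1R, CFB and CD59, 4 of 7 genes, against 9.38% of all 27305 genes with a window. An IRF match occurs in C4BPA, CFB, CFI and CD59, also 4 of 7, against 26.7% of all genes. A C/EBP match occurs in 2 of 7 (C1R and CD59), against 12.7%, and the NF-kappaB consensus in 0 of 7, against 7.09%. Genes with several start sites have more windows to match in, and the printed matches do not overlap each other. These matches are letters in a window and were not tested as sites.

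Of the 16 probes, 7 were detected on all 6 arrays, 6 on no array and 3 on some. C4BPA, C1S and C3 had no detected probe on any array, in either group. Only genes with a probe detected on at least 3 of the 6 arrays entered the fit, which left 6 of the 9 genes: C4BPB, C1R, CFB, CFI, CD55 and CD59. Across all 11806 named genes in that fit, 5.37% passed limma's test (Benjamini-Hochberg adjusted p under 0.05), 2.28% as higher and 3.09% as lower after siP/CAF. Of the 6 members, 2 passed as higher, C4BPB and CD55, and none as lower. Because the members were chosen with this comparison known, nothing is read from that count. Normalized values of the groups did not overlap for 3 of the 6 members, C4BPB and CD55 higher and C1R lower, where 27.7% of all tested genes did not (12.6% higher and 15.1% lower).

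**Figure D1:**
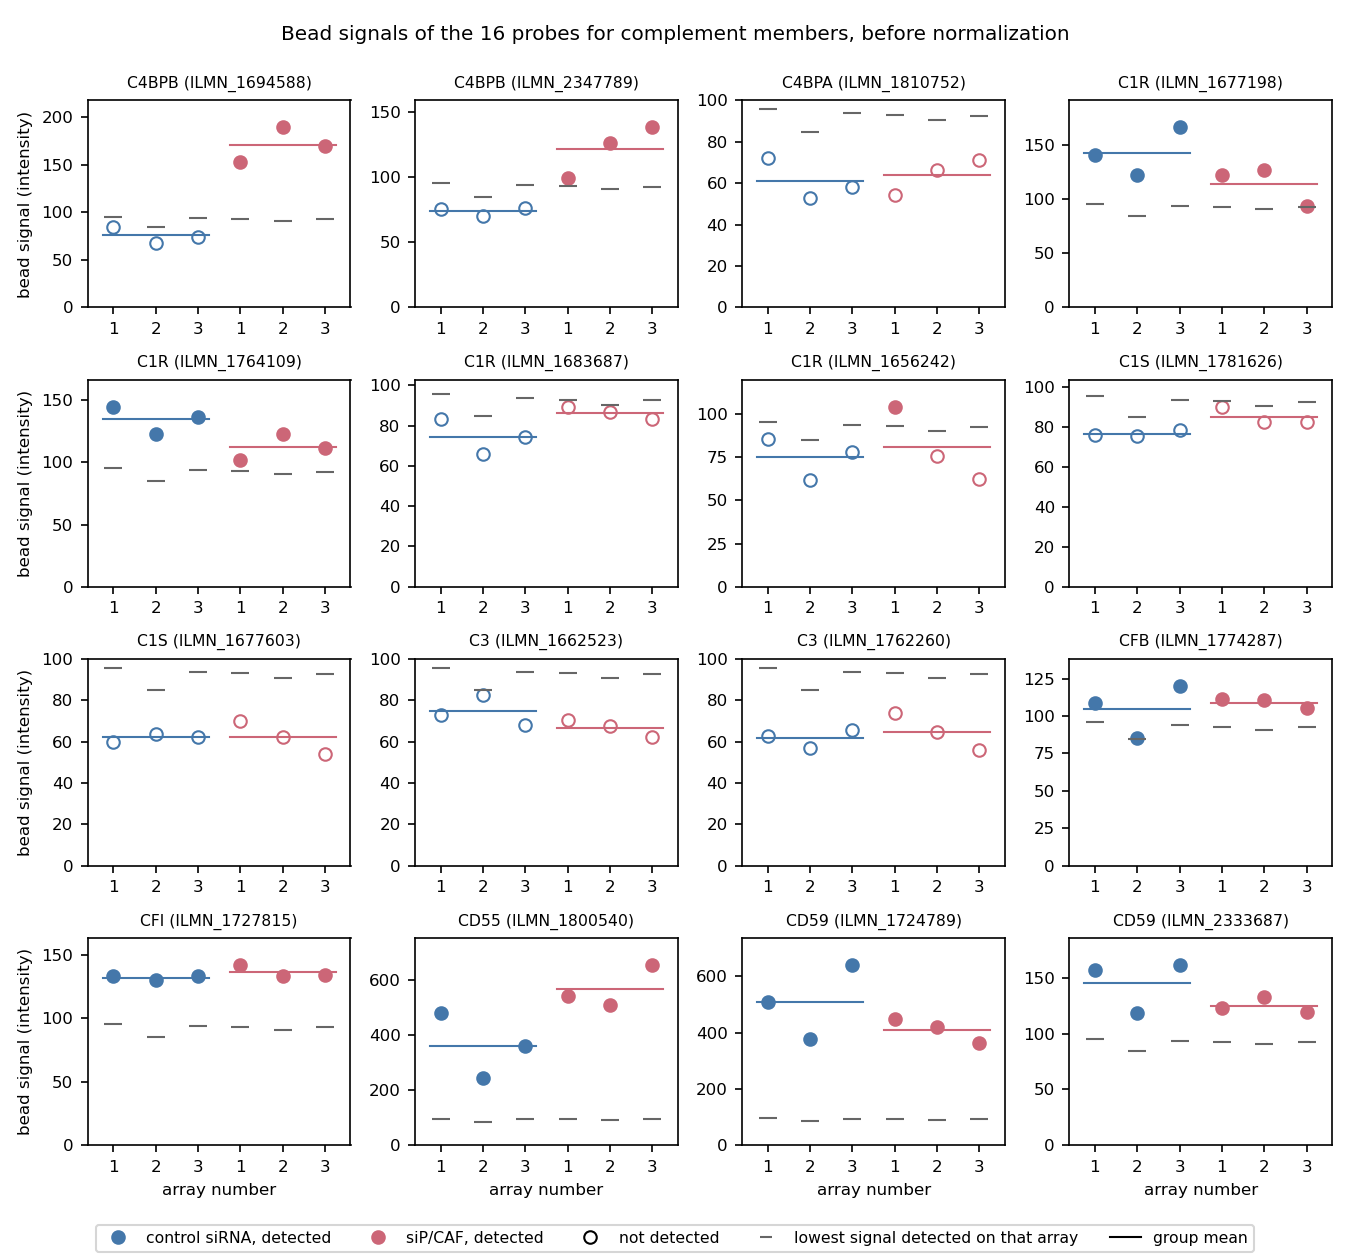
Bead signals (vertical axis, intensity before normalization, each panel on its own scale from 0) of the 16 probes on the 3 control siRNA arrays and the 3 siP/CAF arrays (horizontal axis, array number). Filled points were detected, open points were not, short grey lines mark the lowest signal detected on that array and long lines the group means. C4BPB is open on every control array and filled on every siP/CAF array, while C4BPA, C1S and C3 are open throughout.

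C4BPB encodes the beta chain of C4b-binding protein, the chain that binds the anticoagulant protein S. On its brighter probe (ILMN_1694588) the bead signals were 84.9, 68.3 and 74.1 on control arrays 1, 2 and 3, and 153.6, 189.5 and 169.9 on siP/CAF arrays 1, 2 and 3. The control signals lay under the lowest signal detected on their arrays (84.9 to 95.7), with detection p of 0.16, 0.42 and 0.45, and every siP/CAF signal lay above every control signal. After background correction and quantile normalization the level was 4.68 ± 0.12 on the log2 scale in controls and 6.85 ± 0.24 after siP/CAF (SD, n = 3), a difference of 2.17 with an SE of 0.17. Since no control array detected it, the size can be given only as a lower limit, and that limit depended on the background correction. It was at least 3.21-fold with the correction used here, at least 2.14-fold with a larger offset and at least 1.87-fold without correction, and the mean bead signals themselves stood 2.26-fold apart. The limit sets the siP/CAF mean against the mean, per control array, of the higher of the probe's own value and the lowest detected value.

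A second C4BPB probe (ILMN_2347789), annotated to another transcript of the gene, behaved in the same way at a lower signal. It read 75.2, 70.4 and 75.9 in controls, none detected, and 99.0, 126.2 and 137.9 after siP/CAF, all detected. The groups did not overlap. The limit for this probe was at least 1.74-fold with the correction used here and at least 1.31-fold without correction, and its mean bead signals stood 1.64-fold apart. Both probes met the detection filter through the siP/CAF arrays alone, the group in which they were high, so that their passing the threshold supports nothing further. The log2 difference of the brighter probe depended on the background correction, being 1.18 without it, 1.33 with a larger offset and 1.18 in the authors' deposited log2 values. Leaving out any 1 array gave 2.07 to 2.30.

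C4BPA, the alpha chain that carries the binding sites for C4b and lies next to C4BPB on the chromosome, was not detected. Its 1 probe read 72.3, 53.0 and 58.3 in controls and 54.2, 66.5 and 71.2 after siP/CAF. These signals overlapped between groups, and all 6 lay under the lowest detected signal of their array. A change of C4BPA under the array's background cannot be seen here. The nearest tested gene on the low side of the cluster, YOD1, a deubiquitinase next to C4BPB, had a log2 difference of 0.72, short of the threshold (limma, Benjamini-Hochberg adjusted p = 0.0522). On the high side the nearest tested gene, with 11 genes between it and CD55, was the non-coding MIR29B2CHG, at 0.25 (limma, Benjamini-Hochberg adjusted p = 0.477).

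CD55 encodes decay-accelerating factor, a lipid-anchored protein of the cell surface. Its 1 probe was bright, with signals of 478.4, 243.6 and 359.2 in controls and 540.4, 507.9 and 653.8 after siP/CAF. All 6 arrays detected it and the siP/CAF signals lay above all control signals, the lowest control being array 2. On the log2 scale CD55 measured 8.14 ± 0.34 in controls and 9.03 ± 0.28 after siP/CAF (SD, n = 3), a difference of 0.89 (SE 0.21) or 1.85-fold. The spread within groups was large beside this difference. CD55 no longer passed when any 1 of the 6 arrays was left out, with differences between 0.73 and 1.07, and it passed in 5 of 15 alternatives in all.

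CD59 encodes protectin, the inhibitor of the membrane attack pore. Its brighter probe (ILMN_1724789) read 509.1, 378.3 and 640.5 in controls and 446.9, 420.3 and 364.3 after siP/CAF. The groups overlapped, control array 3 being the highest, and the log2 difference was -0.24 (SE 0.17). A dimmer CD59 probe (ILMN_2333687) read 157.1, 118.9 and 162.1 in controls and 123.6, 132.9 and 119.7 after siP/CAF. Its difference was -0.33 (SE 0.16), with siP/CAF values under all controls only after normalization. Neither probe passed, and on arrays 1 and 2 of each group alone the brighter probe differed by -0.04.

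CFI encodes factor I, the protease that needs C4b-binding protein or other cofactors to cut C4b and C3b. Its probe was low but detected on all 6 arrays, at 133.1, 130.0 and 132.8 in controls and 141.9, 133.3 and 134.1 after siP/CAF. Before normalization the siP/CAF signals lay just above the controls, and after it they overlapped, with a log2 difference of 0.10 (SE 0.17).

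CFB encodes factor B, the protease of the alternative convertase. It was near the detection limit on all 6 arrays, reading 108.5, 85.1 and 120.2 in controls and 111.4, 110.5 and 105.1 after siP/CAF. The groups overlapped, and the log2 difference was 0.16 (SE 0.19). Without control array 2, its lowest control, the difference was -0.0042, and CFB passed in no alternative.

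C1R encodes the protease that activates C1s, and its 4 probes did not behave alike. The brightest (ILMN_1677198) read 140.4, 122.6 and 166.3 in controls and 122.7, 127.2 and 93.6 after siP/CAF, all detected. These signals overlapped, the normalized values did not, and the log2 difference was -0.61 (SE 0.25). The next probe (ILMN_1764109) read 144.9, 123.0 and 136.9 in controls and 102.2, 122.6 and 111.7 after siP/CAF, with a difference of -0.51 (SE 0.18). Neither C1R probe passed. The difference of the brightest rested largely on siP/CAF array 3, being -0.32 without that array and -0.19 on arrays 1 and 2 of each group alone. The remaining C1R probes were at background, 1 of them detected on siP/CAF array 1 alone at 104.4, and their signals were slightly higher on average after siP/CAF. On the other (ILMN_1683687), detected on no array, bead signals overlapped. Its normalized values were apart in the opposite direction, at 4.56 to 4.79 in controls and 4.84 to 5.03 after siP/CAF.

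C1S, the protease that cleaves C4 and C2 and the neighbour of C1R, was not detected by either of its probes. Its brighter probe read 75.8, 75.3 and 78.3 in controls and 90.2, 82.3 and 82.6 after siP/CAF, all under the lowest detected signal of each array. The siP/CAF signals of that probe lay above the controls, but the normalized values overlapped. The nearest tested genes on either side of the pair, LPCAT3 (-0.46) and PEX5 (0.01) stayed short of the threshold (limma, Benjamini-Hochberg adjusted p = 0.161 and 0.982). C3, the protein on which all routes converge, was also not detected. Its probes read between 56.8 and 82.7 in controls and between 56.1 and 73.7 after siP/CAF, and both overlapped between groups. The nearest tested gene before CFB, the classical protease gene C2, differed by -0.50 on the log2 scale without passing (limma, Benjamini-Hochberg adjusted p = 0.224). The nearest tested neighbours SKIC2 (of CFB), TNFSF14 and GPR108 (of C3), PLA2G12A and GAR1 (of CFI) and C11orf91 and FBXO3 (of CD59) had log2 differences of -0.03 to 0.23, and none passed (limma, Benjamini-Hochberg adjusted p between 0.496 and 0.967).

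**Figure D2:**
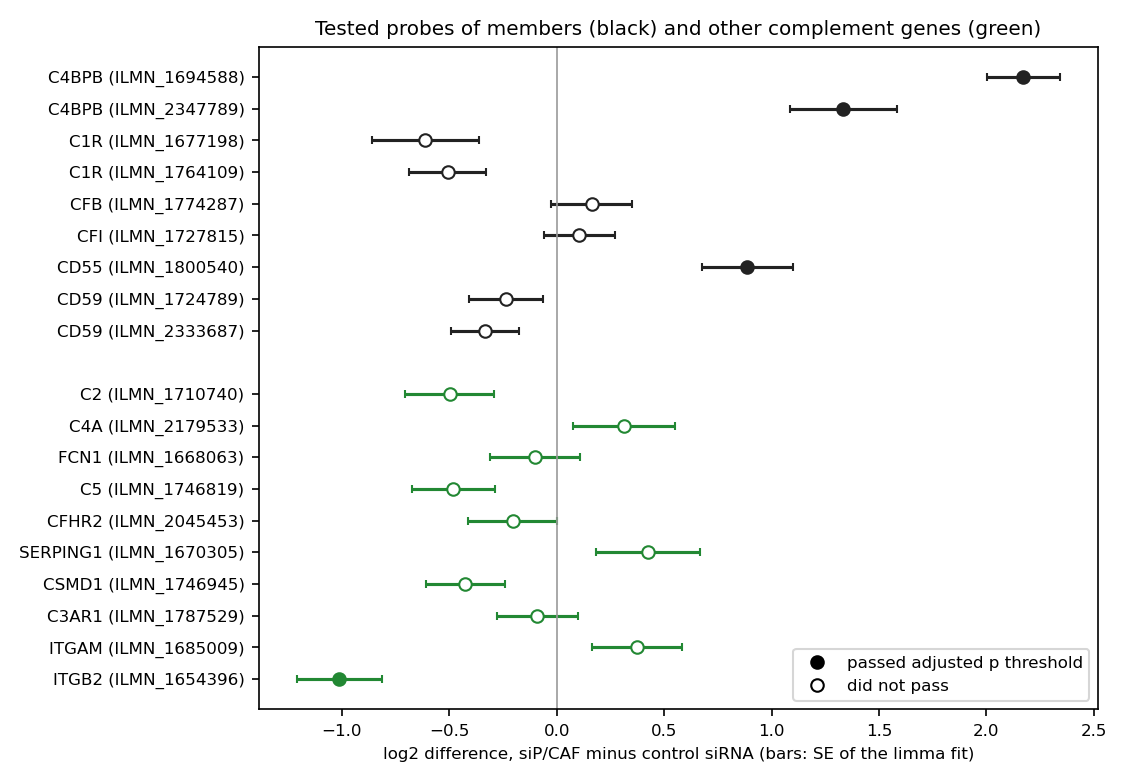
Log2 differences, siP/CAF minus control siRNA (horizontal axis), with the SE of the limma fit as bars, for the 9 tested probes of members (black) and the brightest tested probe of 10 other complement genes (green). Filled points passed the threshold over all probes: both C4BPB probes (2.17 and 1.33), CD55 (0.89) and ITGB2 (-1.01).

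Most of the rest of the complement system was not detected in these cells. Of 48 other complement genes listed by role, 43 had a named probe and 10 were tested. Of these 10, 1 passed as lower and 0 as higher (limma with Benjamini-Hochberg adjustment), or 10% against 5.37% of all genes. An unadjusted p under 0.05 was found for 4 of the 10, or 40% against 20.6% of all genes tested. Normalized values of the groups were apart for 3 of the 10 (ITGB2, C5 and CSMD1), all lower, where 15.1% of all tested genes were apart as lower. The median log2 difference of the 10 was -0.15, against -0.01 over all genes tested.

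The gene that passed was ITGB2, the beta-2 integrin chain shared by complement receptors 3 and 4. Its signals were 6646.1, 6338.1 and 8794.0 in controls and 3710.4, 3952.3 and 3292.8 after siP/CAF. The groups were far apart, and control array 3 was the highest. ITGB2 fell by 1.01 on the log2 scale, SE 0.20 (limma, Benjamini-Hochberg adjusted p = 0.0207), and a second ITGB2 probe fell by 1.17 (limma, Benjamini-Hochberg adjusted p = 0.0145). ITGB2 lost its call without control array 2 or any 1 of the siP/CAF arrays, with log2 differences between -1.18 and -0.82 (limma, Benjamini-Hochberg adjusted p between 0.0302 and 0.0724 over the 6 arrays left out). Its partner chain in complement receptor 3, ITGAM, was near the detection limit, detected on 1 control and 2 siP/CAF arrays, and measured 0.37 (limma, Benjamini-Hochberg adjusted p = 0.386). ITGAX, the partner in complement receptor 4, was detected on no array.

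Among 15 genes that start the cascade, 3 were tested and none passed. They were C2, C4A (0.31, a near-identical copy of C4B) and the ficolin gene FCN1 (-0.10) (limma, Benjamini-Hochberg adjusted p = 0.551 for C4A and 0.864 for FCN1). On their brightest probes C1QB, C1QC, C4B, MASP1 and MBL2 were detected on no array. Among 7 terminal genes, C5, from which the pore starts to assemble, was the 1 detected. C5 read 484.3, 449.3 and 722.0 in controls and 365.2, 425.6 and 360.6 after siP/CAF, so that no siP/CAF signal reached the controls. C5 differed by -0.48, short of the threshold (limma, Benjamini-Hochberg adjusted p = 0.207). C6, C7, C8A, C8B, C8G and C9 were detected on no array.

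Of 7 soluble regulators with a probe, SERPING1, the C1 inhibitor, measured 0.42 and CFHR2 measured -0.21 (limma, Benjamini-Hochberg adjusted p = 0.395 and 0.673). CFHR2 has close relatives in its family that its probe may also read. CSMD1, the 1 tested gene among 3 membrane regulators with a probe, measured -0.43 (limma, Benjamini-Hochberg adjusted p = 0.242). The anaphylatoxin receptor gene C3AR1 was low and measured -0.09, and C5AR1 was detected on no array. CFD and CFP, which encode factor D and properdin of the alternative route, were also detected on no array.

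**Figure D3:**
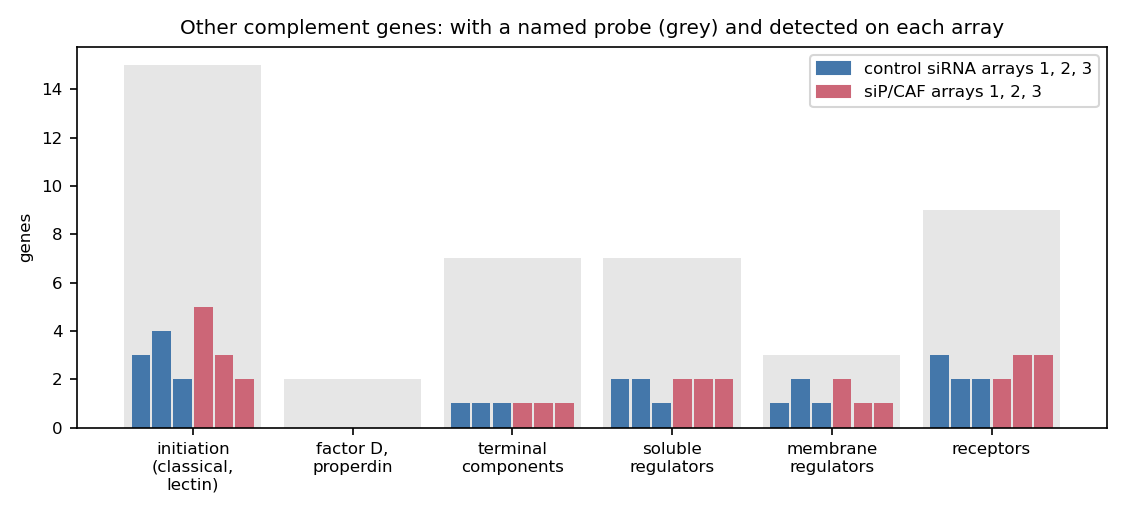
Number of other complement genes (vertical axis) with a named probe (grey) and detected on each of the 3 control siRNA arrays and 3 siP/CAF arrays (coloured bars, brightest probe of each gene), by role. At most 5 of 15 initiation genes, 1 of 7 terminal genes and 3 of 9 receptors were detected on any array.

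Genes known to drive complement transcription in liver and other cells were followed as a further list. None of its 8 tested members passed (limma with Benjamini-Hochberg adjustment), with 1 at an unadjusted p under 0.05, or 12.5% against 20.6% of all genes tested. Normalized values of the groups were apart for 3 of the 8, IRF1, NFKB1 and RELA, all higher after siP/CAF, where 12.6% of all tested genes were apart as higher. CEBPD, an acute-phase transcription factor, measured -0.41 and IL6ST, the shared receptor chain of the interleukin 6 family, 0.38 (limma, Benjamini-Hochberg adjusted p = 0.260 and 0.296). IL6 was detected on 1 siP/CAF array. IL1B, TNF and IFNG were detected on no array.

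Markers of other cells that make complement moved with C4BPB in part, and their part in the result was not tested. Of 12 hepatocyte markers, 8 were detected on no array on their brightest probe, among them APOA1, APOA2, AHSG and FGB. The summed signal of all 12 was 1058.6 to 1131.4 in controls and 1340.1 to 1404.3 after siP/CAF. Without SERPINA1 the sums overlapped, at 843.8 to 890.6 in controls and 825.2 to 912.5 after siP/CAF. SERPINA1, an acute-phase protease inhibitor, read 246.7, 214.8 and 218.9 in controls and 486.1, 537.1 and 514.9 after siP/CAF. This was a rise of 1.50 on the log2 scale (limma, Benjamini-Hochberg adjusted p = 0.00114), and a second SERPINA1 probe rose by 1.39. ALB, the most abundant product of hepatocytes, measured -0.03.

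Of 10 leukocyte and macrophage markers, 7 were tested and 2 passed as higher, CSF1R and LYZ, or 28.6% against 2.28% of all tested genes. Normalized values of the groups were apart for 3 of the 7 (CSF1R, LYZ and CD14), all higher, where 12.6% of all tested genes were apart as higher. CSF1R, the receptor for macrophage colony-stimulating factor, read 373.3, 284.9 and 332.4 in controls and 706.4, 674.7 and 630.3 after siP/CAF, a log2 difference of 1.26 (limma, Benjamini-Hochberg adjusted p = 0.0016). LYZ, lysozyme, was detected on no control array and all siP/CAF arrays on 1 probe, which therefore entered the fit only through the group in which it was high. That probe was at least 1.30-fold higher with the background correction used here and at least 1.12-fold higher without it, and its call was lost in 9 of 14 alternatives. The other LYZ probe was detected on no array and differed by 0.02. The pan-leukocyte gene PTPRC and the adaptor TYROBP were detected on no array. The list's summed signal was 1778.6 to 2000.1 in controls and 2327.6 to 2520.2 after siP/CAF. Without CSF1R and LYZ it was 1417.3 to 1581.2 in controls and 1592.7 to 1704.8 after siP/CAF, without overlap but close. Sums of this and the other lists are of bead signals before normalization and include undetected genes. CD68, the brightest gene left in this sum, overlapped on the probe summed. That probe read 708.7, 693.7 and 790.8 in controls and 842.3, 782.7 and 736.8 after siP/CAF, while a dimmer CD68 probe was apart as higher. Of the fibroblast and endothelial markers, 5 were tested, PECAM1 fell by 0.59 and THY1 measured 0.47 (limma, Benjamini-Hochberg adjusted p = 0.0433 and 0.0944). Of the 5, 60% had an unadjusted p under 0.05 (limma), against 20.6% of all genes tested. Normalized values were apart for 1 as higher (THY1) and 2 as lower (PECAM1 and COL1A2), where 12.6% and 15.1% of all genes were. COL1A2, counted in both shares, was detected on 3 control and 0 siP/CAF arrays. It therefore entered the fit only through the group in which it was high, and nothing further is read from its place in these counts. Its bead signals, 99.5, 86.7 and 110.2 in controls and 91.6, 66.8 and 88.0 after siP/CAF, overlapped before normalization. The endothelial marker CDH5, not tested, read 61.6, 57.9 and 71.8 in controls, none detected. After siP/CAF it read 91.9, 103.5 and 94.7, detected on 2 arrays. The summed signals of the list, 3301.3 to 4729.1 in controls and 3854.5 to 4218.2 after siP/CAF, overlapped.

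The genes whose values over the 6 arrays followed C4BPB most closely were TGM1, MYADM, TGM2, TMEM245 and DUSP5, with Pearson correlations of 0.994 to 0.998. The points are 6 arrays in 2 groups, so any gene that separates the groups cleanly with a like spread scores high. TGM1 and TGM2 encode transglutaminases, which cross-link proteins, and differed by 1.93 and 1.81 on the log2 scale. DUSP5, a phosphatase of ERK kinases, differed by 0.77, MYADM by 0.46 and TMEM245 by 0.54, and neither MYADM nor TMEM245 passed.

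**Figure D4:**
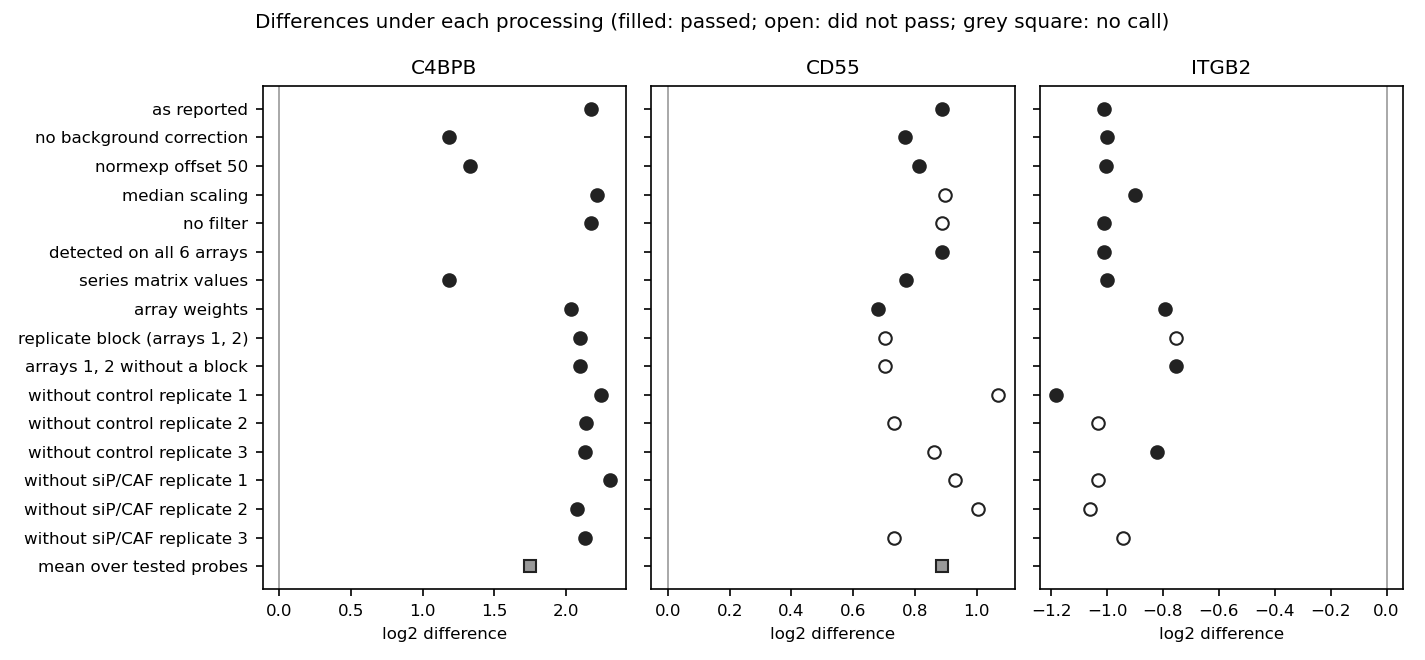
Log2 differences of C4BPB, CD55 and ITGB2 (horizontal axes, siP/CAF minus control siRNA, a scale for each panel) under each processing alternative (vertical axis). Filled points passed the threshold over all probes, open points did not, and the grey square is the mean over a gene's tested probes, which has no call. C4BPB, which met the detection filter through siP/CAF arrays alone, lies at 1.18 to 2.30, while CD55 is open whenever an array is left out.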

How the data were processed

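Expression was read in 6 samples of Rh30 cells on 1-colour Illumina HT-12 bead arrays, 3 with a control siRNA and 3 with siP/CAF, grouped by the treatment label. The deposited table gives an average bead signal per probe as intensity, not normalized, per the file headers. The deposited score beside each signal has a column name of p-value, per the file headers, but it rises with the signal and was read, from the values, as 1 minus the detection p. The deposited series matrix holds log2 values centred on each probe's median (scale found against the signals, r between 0.933 and 0.970; each column's median was 0; direction from positive slopes). It served as an alternative; the sources used here give no normalization for it, no scanning software and no genome build.

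Signals were normalized with neqc in limma 3.58.1 (R 4.3.3): normexp from the detection p, offset 16, quantile, log2. Probes detected (p under 0.05) on at least 3 arrays were fitted with lmFit and eBayes without a block, 21232 of 47323, and Benjamini-Hochberg adjustment ran over all of them. A gene stands by its brightest tested probe. Symbols came from the platform annotation, and 30113 probes had 1 symbol. The fit was tested on simulated data. Motifs were searched in RefSeq promoter windows. They were chosen after the members' values were seen, and 2 of the 4, NF-kappaB and IRF, were respelled after matches to a first spelling had been seen, so motif counts are a description.

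The members and gene lists were chosen with earlier results of these data known. Named are all members, KAT2B, neighbouring tested genes, the genes most like C4BPB, and in each list the genes that passed or, where fewer than 2 did, those of smallest p up to 2. Genes named beyond this rule, mostly undetected ones, were chosen after their values were seen. The lower limits under other background corrections and the sums without genes that passed were added after the data were seen. The number of arrays limits the precision. Alternatives were other background, scaling, filter, weight, block and left-out-array settings.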

Additional observations from a re-analysis of the deposited data

How the results depend on the processing

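Over 11806 genes the count of 634 changed genes was 1748 with array weights and 209 to 703 when 1 array was left out. The count of other complement genes that passed (1, ITGB2) was 0 with the replicate block and 0 to 1 when 1 array was left out. The count of members that passed (2, C4BPB and CD55) was 1 with median scaling, without a filter, with the block, with the same 4 arrays without it, and with each array left out, CD55 being lost each time. It was also 1 among probes detected on all 6 arrays, where C4BPB could not be tested by construction. Causes of the other losses were not tested. The replicate block used arrays 1 and 2 of each group, since the third siP/CAF sample carries no number. Deviations of same-numbered arrays from their group means correlated at -0.15 and -0.41. With 3 arrays per group such correlations constrain one another, so they cannot tell whether same-numbered arrays share more than a number. The block gave 442 changed genes against 764 on the same arrays without it, an alternative added after the data were seen. The sign of C4BPB, CD55, C1R, CD59 and CFI held in every alternative run. That of CFB held in 15 of 16, with -0.0042 without control array 2 and up to 0.38. Signal over background limits C4BPA, C1S and C3, which had no value above detection on any array, and the size of the C4BPB rise.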
